A study of Mus musculus with 24 samples.

Results

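The genes described here mark the contractile and supporting cells of the lung: smooth muscle cells, myofibroblasts, pericytes and fibroblasts. They are the 10 genes Acta2, Tagln, Myh11, Cnn1, Des, Pdgfrb, Cspg4, Thy1, Inmt and Meox2, of 24050 named genes on the array. Each was taken by its name in the scanner files, among spots that are not controls, and each is measured by 1 probe. The probes of Acta2 and Des are spotted 10 times each and the others once, which gives 28 spots in all.

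Smooth muscle cells, myofibroblasts and pericytes are contractile cells that pull by means of actin and myosin filaments. The smooth muscle cells and pericytes of vessel walls are called mural cells. Their contractile genes are switched on by serum response factor (SRF), which binds a short DNA motif called the CArG box, with the partners myocardin and the MRTFs, and TGF-beta drives the same programme in myofibroblasts. Pericytes depend on platelet-derived growth factor through the receptor Pdgfrb. Alveolar type II cells are epithelial cells that secrete surfactant, and these genes are not part of their usual programme, so in preparations of such cells they are commonly read as signs of mesenchymal cells or of cells taking on mesenchymal traits.

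RNA came from primary alveolar type II cells of the mouse, grown at an air-liquid interface until they formed a monolayer, and was measured on 1-colour Agilent arrays. In the NaHS experiment the cells received medium (DMEM) as vehicle or NaHS at 100 µM, a fast-acting source of hydrogen sulfide, for 6 h or 24 h. In the GYY4137 experiment all cells analysed here received 100 µM GYY4137, a slow hydrogen sulfide donor, for 24 h in 21% O2 or 85% O2, so the donor is shared by both groups and its own effect is not measured. There were 4 arrays for each of the 6 groups, thus 16 in the first experiment and 8 in the second. Mouse strain, age and sex are not given in the sources used here. Nothing in the labels tells separate cultures or animals from repeated samples of one, so p-values measure only the spread between these samples. Slides 1 and 2 each held 2 arrays of every NaHS experiment group. The 21% O2 arrays lay on slide 3 and the 85% O2 arrays on slide 4, so slide and oxygen level cannot be told apart.

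The labelled cell type was checked against its markers. In both experiments 9 of 12 alveolar type II markers were measured above background throughout, on 16 and 8 arrays, while Slc34a2, a phosphate transporter of these cells, was so on 0 of the 16. On all 16 arrays so were 9 of 10 type I, 5 of 5 mesothelial and 28 of 31 fibroblast and matrix genes. For endothelial genes it was 5 of 10, for macrophage genes 7 of 12 and for striated muscle genes 4 of 13. Being above background thus did not set type II markers apart from several other lists. The genes described here were also present: 9 of the 10 lay well above background on all 24 arrays, and Meox2 missed it on vehicle 24 h replicate 1 and 85% O2 replicate 3. In RNA from a whole culture, fewer cells of a type and less RNA per cell cannot be told apart.

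The probe of Des and the promoter of Acta2 are shown because Des gave one of the firmest differences and Acta2 is the standard mark of the contractile state. The Des probe is the only one of the 10 whose 60 bases are spread over a longer stretch of genome, 226 bases on chromosome 1 (mm9, positions 75363404 to 75363629, plus strand), whereas the others each cover 60. The promoter is the stretch of 250 bases before the start of Acta2 in RefSeq (GRCm38.p6, chr19:34255374-34255623, minus strand), and its capitals mark 2 near matches to the CArG box.
Des probe: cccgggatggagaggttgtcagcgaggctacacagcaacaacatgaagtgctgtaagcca
Acta2 promoter: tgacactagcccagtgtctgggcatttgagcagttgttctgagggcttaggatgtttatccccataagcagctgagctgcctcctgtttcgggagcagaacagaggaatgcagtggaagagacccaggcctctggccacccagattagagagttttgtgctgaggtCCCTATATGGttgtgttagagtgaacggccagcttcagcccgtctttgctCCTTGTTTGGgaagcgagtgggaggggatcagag

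The CArG box was searched as CC, then 6 bases of A or T, then GG, a pattern that reads the same on both strands. RefSeq's promoter table (GRCm38.p6) held windows for 6 of the 10 genes, Acta2, Cnn1, Des, Cspg4, Inmt and Meox2. In the 250 bases before the start, 0 of the 6 held the exact motif, which 482 of 32851 windows did (1.47%). The search was then widened, after that result was seen, to allow 1 G or C among the 6 middle bases. This gave the 2 sites of Acta2, CCCTATATGG at 84 to 75 bases and CCTTGTTTGG at 34 to 25 bases before the start, and none in the other 5 windows. Of all windows, 8.59% held at least 1 exact or widened match and 0.67% at least 2. A match is a description of letters, and no match says only that these letters are absent from this window.

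Below, a level is the log2 signal of a gene's probe minus the 75th percentile of all probes on the same array. Differences are log2 differences ± standard error from limma, and a gene is called changed at a Benjamini-Hochberg adjusted p under 0.05 over all genes and unnamed probes tested. Levels were stable for some of the 10 genes and loose for others. Acta2, the smooth muscle alpha-actin, ranged from 8.05 to 9.18 over the 16 arrays of the NaHS experiment, and Tagln, the actin-binding protein transgelin or SM22, from 8.40 to 9.27. Meox2, a homeobox factor of mesenchyme and vascular cells, ranged from -5.11 to -0.72 on the same arrays. Values of different genes come from different probes and are not compared.

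**Figure D1:**
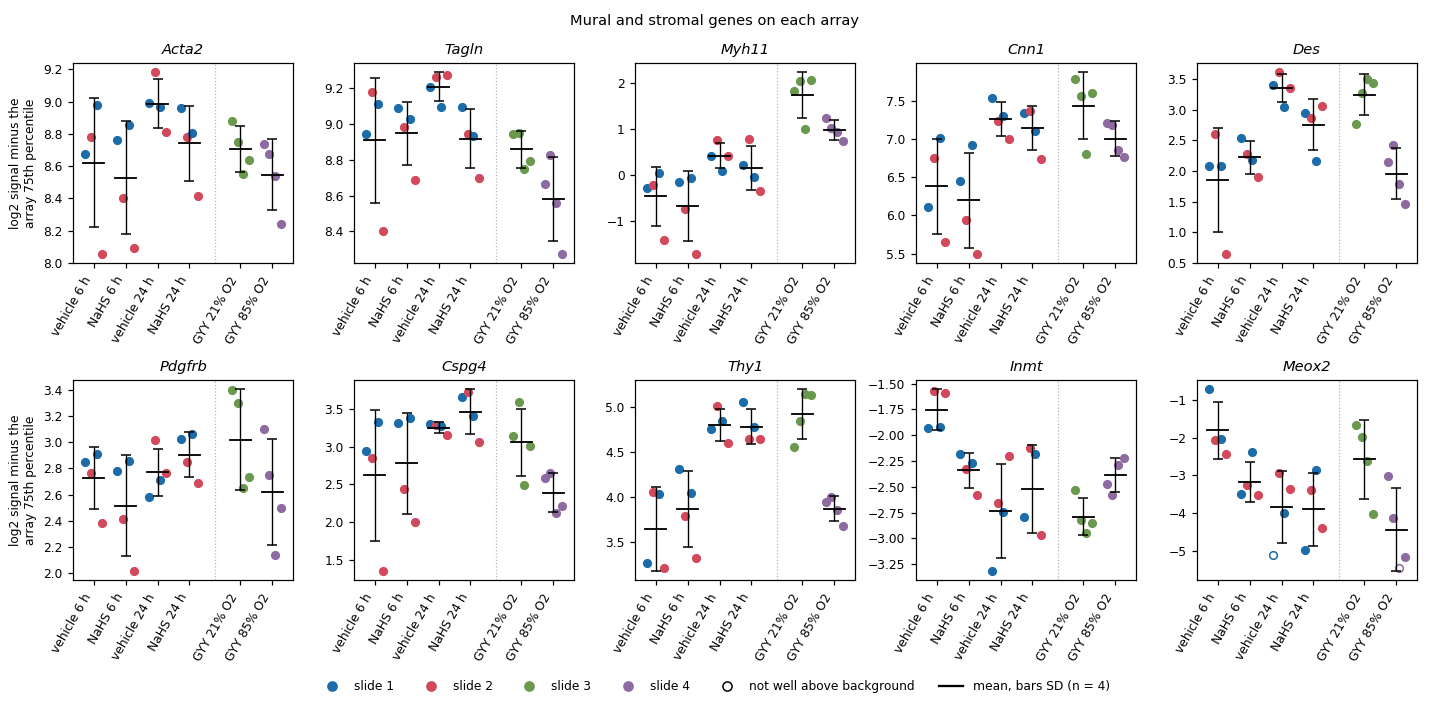
Log2 signal minus the array's 75th percentile (vertical axis) of each of the 10 genes in 6 groups, with 1 point per array coloured by slide, hollow where the probe was not well above background, and the mean with its SD (n = 4). Thy1 lies between 4.599 and 5.06 on the 8 arrays of vehicle and NaHS at 24 h and between 3.22 and 4.32 on the 8 arrays at 6 h.

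The comparison of 24 h with 6 h in vehicle-treated cells asks how these genes moved with time in culture. 8 of the 10 differences were positive and 2 negative, with a median of 0.50 against 0.01 over all features tested. That median was 0.15 within slide 1, 0.75 within slide 2 and 0.19 without vehicle 6 h replicate 4. The 10 genes were chosen with earlier results of these data known. Here and below, their counts and medians beside all features are therefore descriptions and carry no test. Only Thy1 passed the threshold. Of all 33250 features tested, 203 were called (0.611%), 128 of them higher (0.385%). By groups that did not overlap, the counts were 5 of the 10 genes, 3 higher and 2 lower, and 6.74% of all features, 3.87% higher and 2.87% lower. At an unadjusted limma p under 0.05 they were 6 of the 10 genes and 10.8% of all features.

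Thy1, a glycoprotein anchored in the membrane of fibroblasts and also of T lymphocytes and neurons, stood at 3.27, 4.06, 4.04 and 3.22 on vehicle 6 h replicates 1 to 4. At 24 h its levels were 4.76, 5.02, 4.85 and 4.599. The lowest 24 h array lay above the highest 6 h array, so the groups did not overlap. Thy1 rose by 1.16 ± 0.24 (2.23-fold, adjusted p = 0.0482). The size held within each slide, 1.15 on slide 1 and 1.17 on slide 2, but the call lay close to the threshold: leaving out any 1 array other than vehicle 6 h replicate 2 or NaHS 6 h replicate 4 took it past 0.05, with an adjusted p of 0.0359 to 0.15 over the 16 omissions and a difference of 1.01 to 1.30. With slide as a block the adjusted p was 0.0236, and with the replicate number as a block 0.0222. Odd and even replicate numbers lay on different slides in this experiment. The replicate block thus contains the slide block, and here and below it is not separate support.

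Of the genes of the contractile cytoskeleton, Des had the largest difference. Des encodes desmin, the intermediate filament of muscle cells and pericytes. It stood at 2.09, 2.60, 2.09 and 0.64 on the vehicle 6 h arrays and at 3.40, 3.61, 3.05 and 3.35 at 24 h, with replicate 4 far below the rest at 6 h and no overlap between the groups. The difference was 1.499 ± 0.34 and missed the threshold (adjusted p = 0.066). Des was called in 4 of 14 alternative settings, among them slide as a block (adjusted p = 0.0452) and the replicate number as a block (0.0356). Those block fits called 714 and 890 of all features, against 203 without a block. The Des difference was 1.13 within slide 1 and 1.86 within slide 2. Without vehicle 6 h replicate 4 and NaHS 6 h replicate 4, a setting added after the data were seen, 0 of the 10 genes passed and their median difference was 0.19.

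Cnn1, which encodes calponin 1, an actin-binding brake on smooth muscle myosin, stood at 6.11, 6.75, 7.02 and 5.65 on the vehicle 6 h arrays and 7.54, 7.24, 7.30 and 6.997 at 24 h. Only the highest 6 h array reached the lowest at 24 h. The difference of 0.89 ± 0.32 was not past the threshold (adjusted p = 0.275). Myh11, the smooth muscle myosin heavy chain and the most specific gene of mature smooth muscle here, stood at -0.27, -0.22, 0.05 and -1.41 at 6 h and at 0.41, 0.76, 0.10 and 0.42 at 24 h. Its groups did not overlap, by a margin far smaller than the spread at 6 h, and its difference was 0.88 ± 0.39 (adjusted p = 0.415). Acta2 and Tagln differed less, by 0.37 ± 0.21 (adjusted p = 0.628) and 0.30 ± 0.16 (adjusted p = 0.565). For Acta2 the 95% interval ran from -0.09 to 0.82, and for Tagln from -0.04 to 0.64. Without vehicle 6 h replicate 4 the differences were 0.18 and 0.13, and 0.57 for Myh11.

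The pericyte receptor Pdgfrb had means of 2.73 ± 0.24 at 6 h and 2.77 ± 0.18 at 24 h in vehicle (SD, n = 4), a difference of 0.04 ± 0.18. Its 95% interval ran from -0.35 to 0.44, so at this number of arrays a difference of that size either way is not excluded. Cspg4, the proteoglycan NG2 on the surface of pericytes, stood at 2.95, 2.85, 3.33 and 1.35 at 6 h and 3.30, 3.29, 3.28 and 3.15 at 24 h. Replicate 4 was the lowest in both groups, far from the others at 6 h. The difference was 0.63 ± 0.39 (adjusted p = 0.672), but 0.21 without vehicle 6 h replicate 4, and it was 0.15 within slide 1 and 1.12 within slide 2.

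Inmt and Meox2 had the 2 negative differences. Inmt encodes an indolethylamine N-methyltransferase, an enzyme abundant in lung fibroblasts. It stood at -1.93, -1.57, -1.92 and -1.59 at 6 h and at -3.32, -2.66, -2.75 and -2.20 at 24 h, with no overlap. The difference was -0.98 ± 0.24 (adjusted p = 0.0793). With slide as a block the adjusted p was 0.0472 and with the replicate number as a block 0.0511. Meox2 stood at -0.72, -2.05, -2.03 and -2.42 at 6 h, and at -5.11, -2.93, -3.99 and -3.35 at 24 h, the first of these not well above background. These groups did not overlap either, and the difference was -2.04 ± 0.55 (adjusted p = 0.115), with -3.18 within slide 1 and -0.90 within slide 2.

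**Figure D2:**
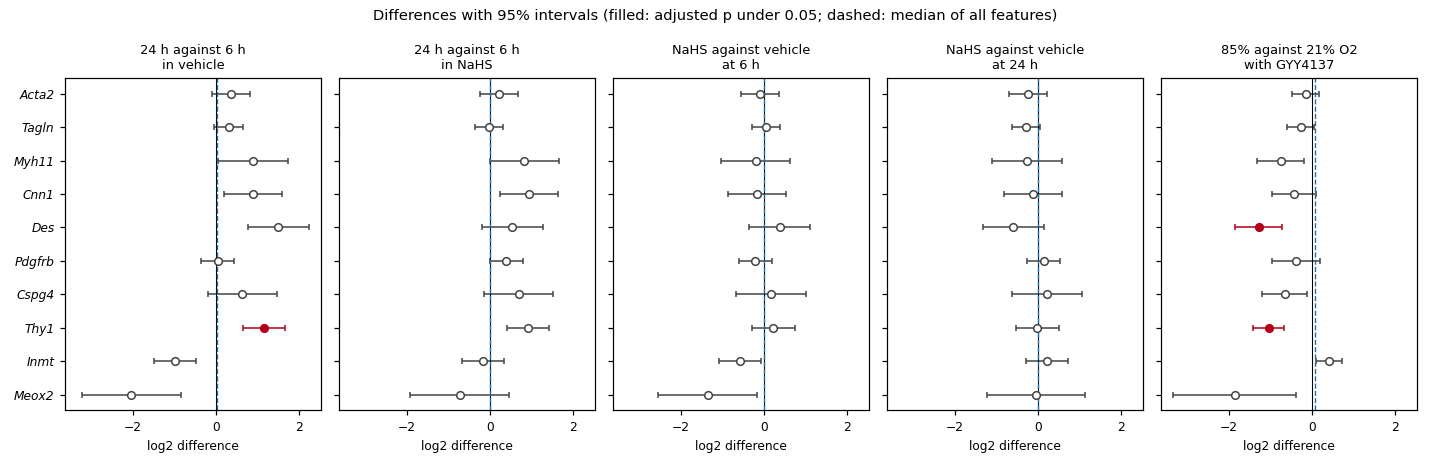
Log2 differences (horizontal axis) of the 10 genes with 95% intervals in 5 comparisons, filled and red where the adjusted p is under 0.05, with the median of all features as a dashed line. Thy1 is filled for time in vehicle (1.16), and Thy1 (-1.05) and Des (-1.29) are filled for 85% against 21% O2.

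In the lists of other genes of the same programmes, Notch3 was the only one called with time in vehicle. Of 23 further smooth muscle contractile genes 17 differences were positive and 0 were called, with a median of 0.22. The smallest p values belonged to Tpm2, a tropomyosin, at 0.49 ± 0.12 (adjusted p = 0.093) and Myl9, a myosin light chain, at 0.76 ± 0.20 (adjusted p = 0.105). Of 9 SRF and MRTF factors and partners 0 were called. Of 15 further pericyte genes 1 was called, Notch3. It encodes the Notch receptor of mural cells and rose by 1.24 ± 0.16 (adjusted p = 0.0155), while the list's median was 0.07.

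Of 31 fibroblast and matrix genes 0 were called, and the median was 0.07, with 16 positive and 15 negative differences. Lum, the matrix proteoglycan lumican, stood at a difference of -1.35 ± 0.40 (adjusted p = 0.157). Fgf10, a mesenchymal growth factor for epithelium, stood at -1.86 ± 0.47 (adjusted p = 0.0933), and at 24 h it was well above background on 1 of 4 arrays. Of 5 PDGF ligands and receptors, 15 TGF-beta ligands, receptors and targets, 10 genes of epithelial to mesenchymal transition, 11 homeobox and mesenchyme factors tested and 5 methyltransferases related to Inmt, 0 were called. Pdgfra, the receptor of alveolar fibroblasts, had the smallest p among them at -1.01 ± 0.30 (adjusted p = 0.155).

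Markers of other cells were measured beside these changes, and their part in the results was not tested. Of 11 alveolar type II markers tested 1 was called lower, Sftpa1, a surfactant protein, at -3.14 ± 0.51 (adjusted p = 0.0241), and 8 of the 11 differences were negative. The summed signal of the type II list, relative to the array's 75th percentile, ran from 58.6 to 114.7 over the vehicle 6 h arrays and from 46.9 to 71.8 at 24 h. For T lymphocytes, which also carry Thy1, all 6 markers tested had positive differences, with a median of 0.37 and 0 called, the sums ran from 6.48 to 8.46 and from 5.89 to 12.1, and Cd3d, Cd3g and Il7r lay well above background on 0 of the 16 arrays. For striated muscle, which also makes desmin, 10 of 11 differences were negative, 0 were called, the sums ran from 11.8 to 20.4 and from 19.7 to 25.3, and Pln was above background on 0 arrays. The striated muscle sum and the count of negative differences point opposite ways: the 1 positive difference was that of Acta1, skeletal muscle actin, at 0.64 ± 0.26 (adjusted p = 0.349).

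Of the remaining marker lists, 10 of 11 macrophage differences and 8 of 10 endothelial differences were positive with 0 called in each. Macrophage sums ran from 9.49 to 13.99 at 6 h and from 10 to 23.2 at 24 h, and endothelial sums from 14.3 to 21.4 and from 19.2 to 21.8. Alveolar type I, mesothelial, basal and myoepithelial, and glial lists also had 0 calls, of 10, 5, 5 and 3 genes tested. Their summed signals ran from 163.0 to 201.0 and from 173.8 to 208.5 for type I markers, and from 211.7 to 419.6 and from 163.6 to 375.2 for mesothelial markers, at 6 h and 24 h. Olig1 of the glial list was above background on 0 of the 16 arrays.

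Replicate 4 was often the lowest array of its group in the NaHS experiment. The fourth vehicle array at 6 h was the lowest of its group for 9 of the 10 genes, Inmt being the exception, whereas 28.4% of all features had their lowest value there. The fourth NaHS array at 6 h was the lowest for 10 of 10 (23% of all features), and the fourth NaHS array at 24 h for 8 of 10 (23.1%). In vehicle at 24 h replicate 4 was the lowest for only 4 of 10 (20.6%), and replicates 1 and 3 for 3 each. On the fourth arrays at 6 h the epithelial lists were high. The mean log2 level of the alveolar type II list was 0.96 on vehicle 6 h replicate 4, against -0.09 to 0.00 on the other vehicle 6 h arrays, and 1.30 on NaHS 6 h replicate 4, against -0.22 to 0.30 on the others. For the alveolar type I list it was 2.81 and 3.12, against 1.18 to 1.501 and 1.10 to 2.12. The fibroblast and matrix list was lowest on both, at 2.03 and 1.88. The part of these differences in the time results was not tested.

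**Figure D3:**
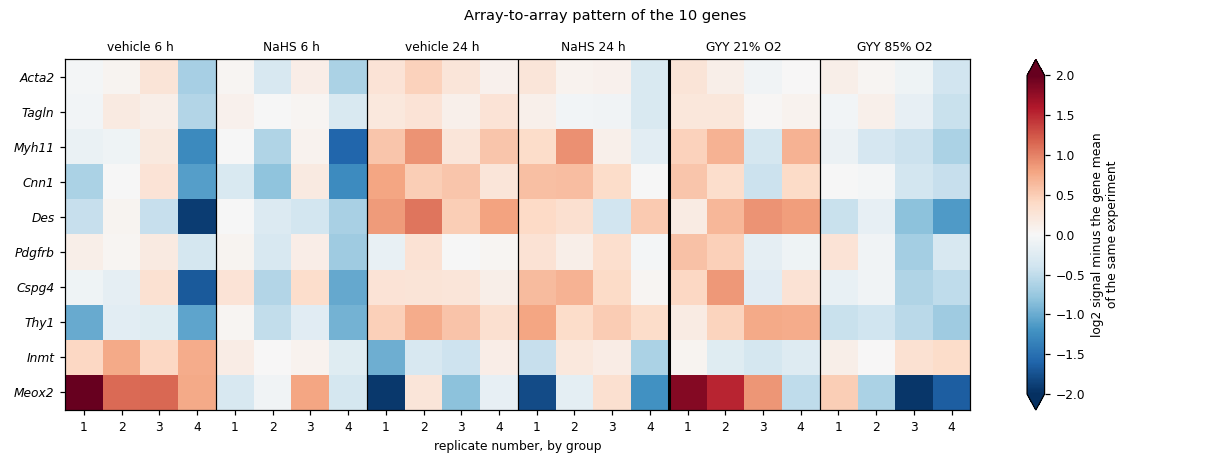
Level of each of the 10 genes (rows) on each of the 24 arrays (columns, by group and replicate number), as log2 signal minus the gene's mean over the arrays of the same experiment, blue for lower and red for higher. In vehicle at 6 h, replicate 4 is the lowest array for 9 of the 10 genes.

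**Figure D4:**
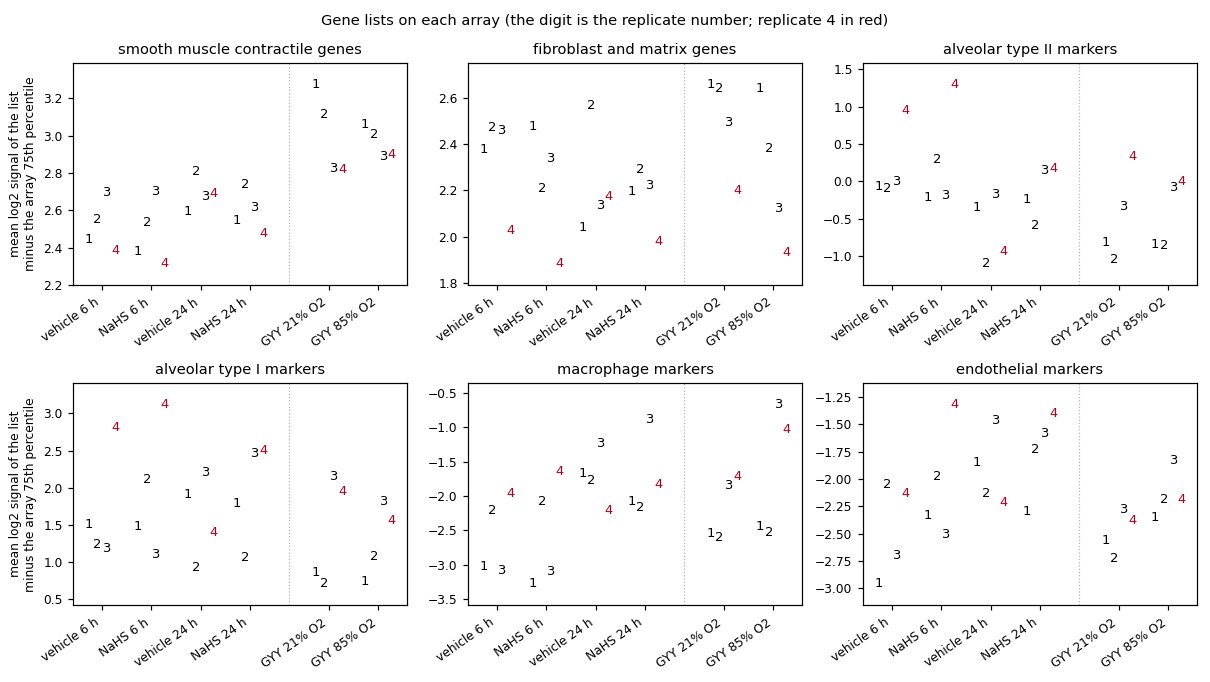
Mean log2 signal, minus the array's 75th percentile, of 6 gene lists (vertical axes) on each array, in 6 groups, with each array drawn as its replicate number and replicate 4 in red. At 6 h, replicate 4 has the highest alveolar type II mean in both groups (0.96 and 1.30) and the lowest fibroblast and matrix mean (2.03 and 1.88).

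The same comparison of 24 h with 6 h was made in cells given NaHS, on other arrays. limma called 9 of 33250 features there (0.0271%), 0.0211% higher and 0.00602% lower, and 0 of the 10 genes. 7 of the 10 differences were positive and the median was 0.46, against -0.01 over all features. That median was 0.19 within slide 1, 0.72 within slide 2 and 0.32 without NaHS 6 h replicate 4. Thy1 stood at 4.32, 3.79, 4.04 and 3.33 at 6 h and at 5.06, 4.65, 4.78 and 4.65 at 24 h. It was the only one of the 10 whose groups did not overlap, against 5.78% of all features (3.61% higher and 2.17% lower), and its difference was 0.91 ± 0.24 (adjusted p = 0.272).

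Cnn1 had a difference of 0.94 ± 0.32 in NaHS (adjusted p = 0.457), Myh11 of 0.82 ± 0.39 (adjusted p = 0.69) and Cspg4 of 0.68 ± 0.39 (adjusted p = 0.825). Des, at 2.54, 2.27, 2.19 and 1.89 at 6 h and 2.94, 2.86, 2.16 and 3.07 at 24 h, differed by 0.53 ± 0.34 (adjusted p = 0.894). Its replicate 3 at 24 h fell inside the 6 h range. Pdgfrb differed by 0.39 ± 0.18, Acta2 by 0.21 ± 0.21, Tagln by -0.03 ± 0.16, Inmt by -0.18 ± 0.24 and Meox2 by -0.74 ± 0.55, none past the threshold. Foxc2, a forkhead factor of vascular mesenchyme, was the only called gene of the mesenchymal lists, and rose by 1.0 ± 0.14 (adjusted p = 0.0413). Tpm2 stood at 0.48 ± 0.12 (adjusted p = 0.272) and Notch3 at 0.77 ± 0.16 (adjusted p = 0.15). Of the markers of other cells only C1qa, a complement gene of macrophages, was called, with a signal above background on 4 of 4 arrays late and on 0 of 4 early.

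Ranked by mean over the 4 groups of this experiment, Acta2, Myh11 and Cnn1 had the same order, lowest in NaHS 6 h, then vehicle 6 h, NaHS 24 h and vehicle 24 h. For Myh11 no step between neighbours exceeded the larger SD of the pair. For Acta2 only the last step did, and for Cnn1 only the step from vehicle 6 h to NaHS 24 h. Thy1 and Des ran from vehicle 6 h through NaHS 6 h and NaHS 24 h to vehicle 24 h. The step from 6 h to 24 h exceeded the SDs for both, and the last step for Des alone. Tagln ran from vehicle 6 h through NaHS 24 h and NaHS 6 h to vehicle 24 h, with only the last step beyond the SDs. Pdgfrb and Cspg4 were highest in NaHS 24 h, with no step beyond the SDs. Inmt and Meox2 were highest in vehicle 6 h, and for both only the step down from vehicle 6 h to NaHS 6 h exceeded the SDs.

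The comparison of NaHS with vehicle asks what the fast donor did. At 6 h limma called 0 of 33250 features (0%), and so 0 of the 10 genes. At an unadjusted limma p under 0.05 there were 196 features (0.59%), Inmt and Meox2 among them. With slide as a block 631 features were under 0.05, and again 0 were called. Inmt stood at -2.19, -2.33, -2.27 and -2.58 with NaHS, all below the 4 vehicle values given above. Its difference was -0.59 ± 0.24 (adjusted p = 1), and it was the only one of the 10 whose groups did not overlap (0.632% of all features, 0.274% in the lower direction). Meox2 stood at -3.50, -3.24, -2.39 and -3.53 with NaHS, and replicate 3 reached the lowest vehicle array. Its difference was -1.36 ± 0.55 (adjusted p = 1). These differences and those of time in vehicle share the vehicle 6 h arrays, where both genes were highest.

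The other 8 differences at 6 h lay between -0.21 (Pdgfrb) and 0.37 (Des). The 95% interval was within 2-fold either way for 6 of the 10 genes, against 58.25% of all features. For Acta2 it ran from -0.55 to 0.36 and for Tagln from -0.30 to 0.38. For Cspg4 it was wider, -0.67 to 0.999, and for Myh11 -1.04 to 0.63. The median of the 10 differences was -0.14, against 0.002 over all features. Within slide 1 the median was 0.02 and within slide 2 it was -0.27. Of the lists of mesenchymal genes 0 were called. The alveolar type II, type I and endothelial medians were 0.14, 0.32 and 0.35, with 0 called.

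At 24 h limma again called 0 of 33250 features (0%), with 736 (2.21%) at an unadjusted p under 0.05, none of them among the 10 genes. With slide as a block 2904 features were under 0.05, and again 0 were called. Tagln stood at 9.10, 8.95, 8.93 and 8.70 with NaHS and at 9.21, 9.26, 9.10 and 9.27 with vehicle. These groups did not overlap, though the nearest values were 9.0974 and 9.098, as those of 1.68% of all features did not (0.743% in the lower direction), although the difference of -0.29 ± 0.16 had 95% limits of -0.63 and 0.05. With quantile normalization and with the authors' deposited value table the difference was 0.0001. Des differed by -0.59 ± 0.34, Myh11 by -0.27 ± 0.39, Acta2 by -0.25 ± 0.21, Cspg4 by 0.21 ± 0.39, Inmt by 0.21 ± 0.24, Pdgfrb by 0.13 ± 0.18, Cnn1 by -0.13 ± 0.32, Meox2 by -0.05 ± 0.55 and Thy1 by -0.02 ± 0.24. For Thy1 the 95% interval ran from -0.53 to 0.49.

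Whether the NaHS effect differed between 24 h and 6 h was tested directly. limma called 0 of 33250 features (0%), with 356 (1.07%) at an unadjusted p under 0.05. Inmt was the only one of the 10 genes among those, at 0.80 ± 0.33 (adjusted p = 1). Des had a difference of effects of -0.96 ± 0.48 and Meox2 of 1.30 ± 0.78, with 95% intervals from -2.01 to 0.08 and from -0.37 to 2.98.

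In the GYY4137 experiment the comparison of 85% with 21% O2 asks what high oxygen did to cells given the slow donor, with slide and oxygen not separable. 9 of the 10 differences were negative, with a median of -0.55, against 0.07 over all features. This too is a description, since the 10 genes were chosen with earlier results of these data known. Thy1 and Des were called lower. Of all 34639 features 5469 were called (15.8%), 3543 higher (10.2%) and 1926 lower (5.56%). That split moved with the processing, and median centring alone gave more lower than higher calls: 1959 higher and 3351 lower with median centring, 2724 and 2582 with quantile normalization, 2742 and 2596 in the deposited value table, and 3314 and 2672 with normexp. By groups that did not overlap, the counts were 2 of the 10 genes, both lower, and 23% of all features, 8.33% in the lower direction. The 10 genes had negative medians under every one of 8 alternatives, between -0.69 and -0.43.

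Thy1 stood at 4.56, 4.85, 5.15 and 5.13 in 21% O2 and at 3.95, 4.005, 3.85 and 3.68 in 85% O2. Every 85% array lay below every 21% array. Thy1 fell by 1.05 ± 0.16 on the log2 scale (adjusted p = 0.00696), 2.07-fold, and was called with each of the 8 arrays left out in turn and in all 8 alternatives. Des stood at 2.76, 3.27, 3.50 and 3.44 in 21% O2 and at 2.15, 2.43, 1.78 and 1.47 in 85% O2, again without overlap. Des fell by 1.29 ± 0.25 on the log2 scale (adjusted p = 0.0139), 2.44-fold, and was called in the same 8 omissions and 8 alternatives.

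Meox2 had the largest difference in size but was variable. It stood at -1.66, -1.97, -2.62 and -4.01 in 21% O2 and at -3.02, -4.13, -5.44 and -5.15 in 85% O2, the third of these not well above background. The groups overlapped, and the difference was -1.87 ± 0.65 (adjusted p = 0.0829), with an adjusted p of 0.0235 when the replicate number was a block. The replicate numbers come from the labels, which do not say that same-numbered arrays are pairs. Pairing in this experiment was checked only in the data. Cspg4 stood at 3.14, 3.59, 2.49 and 3.01 in 21% O2 and at 2.58, 2.65, 2.12 and 2.22 in 85% O2. Its difference was -0.66 ± 0.24 (adjusted p = 0.0907, and 0.0376 with the replicate block).

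Myh11 stood at 1.83, 2.06, 1.01 and 2.06 in 21% O2 and at 1.25, 1.02, 0.93 and 0.73 in 85% O2. Replicate 3 in 21% O2 fell inside the 85% range, and that array was the lowest of its group for 7 of the 10 genes (31.5% of all features). The difference of Myh11 was -0.76 ± 0.25 (adjusted p = 0.0718). Without that array 5 of the 10 genes were called, all lower: Cnn1, Cspg4, Des, Myh11 and Thy1. Of all 34639 features, that fit called 3354, 1233 of them lower, against 5469 with every array. Its omission is singled out because of these same genes, so the count of 5 is a description and carries no test. Cnn1 differed by -0.43 ± 0.23 (adjusted p = 0.215), Pdgfrb by -0.40 ± 0.25 (adjusted p = 0.296) and Tagln by -0.28 ± 0.14 (adjusted p = 0.203). Acta2 differed by -0.16 ± 0.14 (adjusted p = 0.472), and by 0.05 with quantile normalization and with the deposited value table. Inmt had the only positive difference, 0.40 ± 0.14 (adjusted p = 0.0831), from -2.53, -2.82, -2.95 and -2.85 in 21% O2 to -2.48, -2.58, -2.29 and -2.22 in 85% O2, with values of the groups overlapping.

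The further genes of these programmes are read beside the 15.8% of all features that were called between the oxygen levels. Of 23 smooth muscle contractile genes 1 was called, Smtn, the cytoskeletal protein smoothelin, at -0.85 ± 0.12 (adjusted p = 0.00487), and the list's median was -0.03. Among 9 SRF and MRTF genes Mrtfb, an SRF coactivator, rose by 0.49 ± 0.13 (adjusted p = 0.0364). Of 15 pericyte genes 3 were called. Notch3 rose by 1.36 ± 0.24 (adjusted p = 0.0109), while Anpep, an aminopeptidase, was lower at -0.77 ± 0.18 (adjusted p = 0.0268), as was Angpt1, the ligand of the Tek receptor, at -0.83 ± 0.22 (adjusted p = 0.0404).

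Of 30 fibroblast and matrix genes tested 24 differences were negative with a median of -0.28, and 1 was called, Cthrc1, a secreted collagen triple helix protein, at -0.78 ± 0.19 (adjusted p = 0.0315). Smad3, which carries the TGF-beta signal, was the only 1 of 15 genes of the TGF-beta list called, and rose by 0.42 ± 0.11 (adjusted p = 0.0428). Pitx1 was the only 1 of 12 homeobox and mesenchyme factors called, and rose by 1.21 ± 0.27 (adjusted p = 0.0226). Of the PDGF, epithelial to mesenchymal transition and methyltransferase lists 0 genes were called.

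Markers of other cells were again measured beside these, and their part in the result was not tested. Of 10 alveolar type II markers tested 1 was called lower, Lamp3, a protein of lamellar bodies, at -1.04 ± 0.14 (adjusted p = 0.00432). The 10 differences were split, with 5 positive and 5 negative and a median of -0.04. The list's sum, which includes Lamp3, ran from 46.2 to 67.6 in 21% O2 and from 37.0 to 47.8 in 85% O2. Type I sums ran from 166.8 to 191.0 and from 152.0 to 192.0, with 0 of 10 called. Macrophage sums ran from 7.21 to 10.97 and from 7.94 to 17.6, with 10 of 12 differences positive and 0 called. Endothelial sums ran from 14.2 to 18.4 and from 9.63 to 15.4, whereas 5 of 8 differences were positive and 3 negative, with a median of 0.47. Tek, an angiopoietin receptor, was the only one called, higher, and was above background on 3 of 4 arrays in 21% O2. T lymphocyte sums ran from 5.34 to 6.04 and from 5.19 to 5.596. Of 6 T lymphocyte differences 3 were positive and 3 negative, with a median of 0.10, and Cd8a was called higher. Striated muscle sums ran from 17.5 to 22.5 and from 18.9 to 23.0, with Tnni3 called higher and Actc1 lower of 11 tested. Mesothelial sums ran from 114.0 to 182.6 and from 126.7 to 231.6, and 3 of 5 differences were negative, with a median of -0.71. Glial sums did not overlap, at 0.33 to 0.64 and 0.72 to 1.13, and all 3 differences were positive, with a median of 0.83. Basal and myoepithelial sums ran from 8.81 to 13.98 and from 8.42 to 14.8, and these 3 lists had 0 calls.

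Of the 10 genes, 8 varied together from array to array, and Inmt and Meox2 formed a pair of their own. Over the 16 arrays of the NaHS experiment, after each slide's mean was subtracted, Acta2 correlated with Myh11 at r = 0.92, Myh11 with Cnn1 at 0.91, Myh11 with Cspg4 at 0.90 and Cnn1 with Thy1 at 0.90. The 8 were not equally close, with the lowest values for Des with Pdgfrb (0.45) and Tagln with Pdgfrb (0.495). Inmt and Meox2 correlated with each other at 0.83. They ran opposite most strongly to Thy1 (-0.56 and -0.64) and to Des (-0.65 and -0.52). With Acta2 they stood at -0.20 and -0.12, with Tagln at -0.17 and -0.11, and with Pdgfrb at 0.15 and 0.15. These arrays share treatment groups, slides and the 75th percentile scaling, so the correlations describe the arrays and carry no test.

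By the same measure, among 15096 genes well above background on all 16 arrays, those most like Tagln were Vim, the intermediate filament of mesenchymal cells, at r = 0.94, Fkbp10, a collagen chaperone, at 0.94 and Lgals1, a galectin, at 0.93. For Myh11 they were P3h3 (0.97), Fbn1, the matrix protein fibrillin 1 (0.96), and Tars (0.96). For Meox2 they were Zbtb16 (0.91), Tcf21, a factor of lung fibroblasts (0.91), and Lgalsl (0.91). For Thy1 they were the collagen gene Col8a1 (0.96), Farsb (0.95) and Aga (0.95), and for Des the glutamate receptor genes Gria3 (0.97) and Grik4 (0.97) and the matrix gene Fbln2 (0.96).

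The nearest genes of Acta2 were Fndc10 (0.96), Tmem222 (0.96) and Myo3b (0.95). Those of Cnn1 were Pdrg1 (0.98), Bcas3 (0.97) and H3c15 (0.97), and those of Cspg4 were Aldh1l2 (0.97), Dync1li1 (0.97) and Arl15 (0.97). Inmt ran with Ism1 (0.93), Hdgf (0.91) and Abhd10 (0.90), and Pdgfrb with Mfap5, a microfibril protein (0.90), Plac8 (0.89) and Lrrc32 (0.88). Pdgfrb's were the loosest: without the 2 arrays farthest from its median its 3 correlations were 0.79, 0.75 and 0.76.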

How the data were processed

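Total RNA labelled with Cy3 was measured on 24 Agilent arrays. Per the file headers, the authors deposited the intensity of each spot as the scanner software's processed signal, together with flags for background, saturation and uneven spots. The submitters' processing notes name Agilent Feature Extraction 10.7.3.1. The deposited value table holds log2 values whose processing steps are not given in the sources used here, and it was used only as an alternative.

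Spots marked uneven or as outliers were left out (0 to 4 of the 28 spots per array), and no spot was saturated. Spots of a probe were averaged as log2 and each array's 75th percentile was subtracted. Probes well above background on at least 4 arrays of an experiment were kept, with 1 probe per gene (the highest mean), all 10 genes among them in both. The number of arrays limits the precision. The model was limma 3.58.1 (R 4.3.3, data.table package in version 1.17.8), run apart for each experiment, 1 mean per group, with Benjamini-Hochberg adjustment at 0.05, and tested on simulated data. Tables and figures were made with Python 3.11.15, numpy 2.4.6, pandas 2.3.3 and matplotlib 3.10.9. Probe coordinates are on mm9.

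The 10 genes and the 18 lists were chosen with earlier results of these data known. Named were all 10 genes, of each list up to 3 called genes by smallest p (or up to 2 with the smallest p where none was called, of which some are given), and for each gene the 3 genes with the highest Pearson r. Replicate numbers were checked as pairs by correlating deviations from group means: same-numbered arrays correlated at 0.54 to 0.75 in the NaHS experiment, where odd and even numbers lay on different slides, and at -0.31 to 0.39 once slide means were removed. In the GYY4137 experiment they correlated at 0.18 to 0.26. The labels give the numbers but do not say that they mark pairs, so pairing there rests on these correlations alone. Alternatives changed the background correction, scaling, source, filter, probes, samples, block and arrays kept.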

Additional observations from a re-analysis of the deposited data

Results flagged for a closer look

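Of 60 groups of 4 arrays, 1 per gene and group, a single group held an array far from the others. Cspg4 in vehicle at 24 h was lowest on replicate 4, with a gap to the nearest array of 0.872 of the group's whole range, above Dixon's critical value for 4 samples. The 4 levels there were 3.30, 3.29, 3.28 and 3.15, so the gap is large only beside a narrow range. Chance flags about 1 in 20 groups.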

How the results depend on the processing

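For time in vehicle the count of called genes among the 10, 1 in the report, was 0 with median centring, with no filter on dim probes, with only the groups compared, within slide 1, within slide 2 and without replicate 4 of both 6 h groups. It was 2 with normexp and with the replicate block, and 3 with slide as a block and with only probes above background on every array. With 1 array left out it ran from 0 to 2. For 85% against 21% O2, 2 in the report, it was 3 with normexp (Meox2 added), 3 with median centring (Myh11 added), 4 with the replicate block and 2 to 5 with 1 array left out. It was 0 in the other comparisons under each alternative run, and the block changed no other call there. The cause of these shifts was not tested. Some of the settings also had fewer features tested or fewer arrays.

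Over all features, 203 were called for time in vehicle, but 510 with normexp, 1 with median centring, 50 with no filter, 596 with probes above background on every array, 369 with every probe on its own, 0 with only the groups compared, 890 with the replicate block, 714 with slide as a block, 687 with the deposited table and slide as a block, 0 and 1 within slides 1 and 2, and 45 without replicate 4 of both 6 h groups, with 6 to 310 when 1 array was left out. For time in NaHS the count was 9, but 30 with normexp, 59 with probes above background on every array, 2 with quantile normalization and with the deposited table, 35 with the replicate block, 33 with slide as a block, 15 with the deposited table and slide as a block, 0 with median centring, no filter, only the groups compared or either slide, and 0 to 10 with 1 array left out. For oxygen it was 5469, with 2072 to 6777 when 1 array was left out, lowest without 85% O2 replicate 3.

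In the settings that keep every array or leave out a whole slide or replicate 4 of both 6 h groups, 27 differences turned sign, none past the threshold in either fit. With 1 array left out, 15 of the 60 differences turned sign in at least 1 omission, 6 of them for NaHS at 6 h, 3 for NaHS at 24 h, 4 for the difference of effects and 1 for each time comparison, and 0 of the turned values passed the threshold. For NaHS at 6 h, Des ran from -0.03 to 0.62, Cspg4 from -0.26 to 0.42 and Myh11 from -0.52 to 0.14 over those omissions, each extreme but the highest Des value reached without a replicate 4 array at 6 h. With normexp, NaHS at 24 h gave -0.00837 for Inmt and 0.0342 for Thy1. Tagln for time in NaHS was 0.00884 with median centring, 0.15 with quantile normalization and 0.15 with the deposited table, with or without slide as a block. Tagln for NaHS at 24 h was 0.000103 with quantile normalization and 0.0001 with the deposited table, with or without the slide block. Acta2 for the difference of NaHS effects was 0.0248 and 0.0224 in the same settings. For oxygen, Acta2 was 0.048 with quantile normalization and 0.0528 with the deposited table. Within slide 1, NaHS at 6 h gave 0.12 for Cnn1 and 0.00366 for Myh11, NaHS at 24 h gave 0.64 for Meox2 and 0.12 for Thy1, the difference of effects was -0.31 for Cnn1, and time in vehicle gave -0.23 for Pdgfrb. Within slide 2, NaHS at 6 h gave -0.0789 for Thy1, NaHS at 24 h gave -0.12 for Inmt and -0.13 for Pdgfrb, and the difference of effects was 0.0436 for Myh11. Without replicate 4 of both 6 h groups, chosen after seeing the data as was the deposited table with slide as a block, NaHS at 6 h gave -0.00164 for Cspg4 and -0.0429 for Tagln, and time in vehicle gave -0.0728 for Pdgfrb.

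With 4 arrays a group the intervals are wide: for time in vehicle the standard error ran from 0.16 for Tagln to 0.55 for Meox2. Meox2 lay near the array background, and its dimmest values are least sure.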
